A study of Homo sapiens with 6 samples.

Results

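The genes described here set and remove the phosphate on eIF2-alpha, the alpha subunit of the translation initiation factor eIF2. They are the kinase genes EIF2AK1, EIF2AK2, EIF2AK3 and EIF2AK4, the phosphatase subunit genes PPP1R15A and PPP1R15B, the substrate gene EIF2S1, and IMPACT, whose product holds back the kinase encoded by EIF2AK4. They were grouped by role, with earlier results of these data known. Every probe set that the platform annotation pairs with exactly 1 of these symbols was taken, which gave 26 probe sets for 8 genes, of 44988 such probe sets for 18132 genes on the array. The RNA came from BCPAP, an established line of papillary thyroid carcinoma cells. One group carried a lentiviral short hairpin RNA directed at CSF2, which encodes the cytokine GM-CSF (shCSF2, n = 3 arrays), and the other a lentiviral non-targeting hairpin (shCtrl, n = 3 arrays). Both were cultured in RPMI-1640 medium with serum and selected with puromycin for 7 days, starting 48 hours after transduction. How many hairpins or clones stand behind each group is not given in the sources used here, and the 3 arrays of a group are described as biological replicates.

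Phosphorylated eIF2-alpha binds and blocks eIF2B, the exchange factor that reloads eIF2 with GTP, so that most translation initiation slows while a few messages with upstream open reading frames, among them that of the transcription factor ATF4, are translated better. This is the integrated stress response. Each kinase answers another signal: EIF2AK1 (HRI) haem shortage and mitochondrial stress, EIF2AK2 (PKR) double-stranded RNA, EIF2AK3 (PERK) unfolded proteins in the endoplasmic reticulum, and EIF2AK4 (GCN2) amino acid shortage. PPP1R15A (GADD34) and PPP1R15B (CReP) bring protein phosphatase 1 to eIF2-alpha, the first as an inducible target of the response and the second as the constitutive form. The arrays measured messenger RNA, so neither kinase activity nor the phosphate itself was read.

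Each value is a probe set's log2 expression, and differences are shCSF2 minus shCtrl on that scale. Array medians lay between 5.77 and 5.79, arrays correlated across probe sets (which are not independent replicates) with r of 0.998 within and 0.994 between groups, and no pair of arrays was identical. No probe set was paired with CSF2, so the hairpin's target was not analysed here. Of 11 measured epithelial and thyroid markers, 7 had a mean of at least 5 in shCSF2 cells and 7 in shCtrl cells, among them PAX8, NKX2-1 and KRT18, while TG, TSHR, KRT19 and CDH1 lay below it. NKX2-1 (-0.42) and KRT8 (-0.26) were lower in shCSF2 cells by limma, and their part in the results below was not tested. Of the leukocyte markers 2 of 5, of the endothelial markers 3 of 3 and of the fibroblast markers 1 of 3 reached that mean in each group, none of them called. The summed log2 values of the fibroblast markers were nevertheless lower on every shCSF2 array (12.6 to 13.3) than on any shCtrl array (13.4 to 14.1), and so were those of the endothelial markers (18.1 to 18.4 on shCSF2 and 18.4 to 18.7 on shCtrl arrays, without overlap). Those of the leukocyte markers (23.0 to 23.5 on shCSF2 and 23.4 to 23.6 on shCtrl arrays) and of the epithelial and thyroid markers (79.0 to 79.5 on shCSF2 and 79.5 to 79.9 on shCtrl arrays) overlapped. Of the fibroblast markers, LUM (-0.50) and DCN (-0.19) had means below 5 in both groups, and PDGFRA, above it, was at -0.026. The defining leukocyte marker PTPRC was at 2.33 in shCSF2 and 2.35 in shCtrl cells. The GAPDH control signal, taken at the 3' end minus the 5' end of the transcript as a measure of RNA quality, ran between -0.019 and 0.0021 in shCSF2 and between -0.049 and -0.026 in shCtrl arrays (exact two-sided permutation p = 0.1, the smallest that 3 against 3 arrays allow), and that of beta-actin between 0.565 and 0.656 in shCSF2 and between 0.539 and 0.63 in shCtrl arrays (p = 0.6). The part of these differences was not tested either, and in bulk RNA fewer cells that express a gene and less RNA per cell cannot be told apart.

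The 2 phosphatase subunit genes rose in shCSF2 cells, PPP1R15A by 1.65-fold and PPP1R15B by 1.37-fold, and they were the largest changes among the 8 genes. The kinase genes moved little and not together: EIF2AK4 was called higher by 0.21, EIF2AK2 lower by 0.13 on the log2 scale, and EIF2AK1 and EIF2AK3 were not called. The probe sets of EIF2S1 went in opposite directions, and IMPACT was not called, with a 95% confidence interval of -0.087 to 0.08. With 1 probe set per gene (the brightest), limma called 4 of the 8 genes higher, against 16.7% of all genes, and 1 lower, against 16.0% of all genes, at an adjusted p of 0.05, while 32.7% of all genes passed in either direction. The genes called higher include EIF2S1, for which no direction is given below. Their number was between 2 and 3 without 1 array each in turn, and 2 with all probe sets averaged. The median log2 fold change was 0.057 over the 8 genes and -0.025 over all genes. In 5 of the 8 genes the arrays of the groups did not overlap, against 46.7% of all genes.

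**Figure D1:**
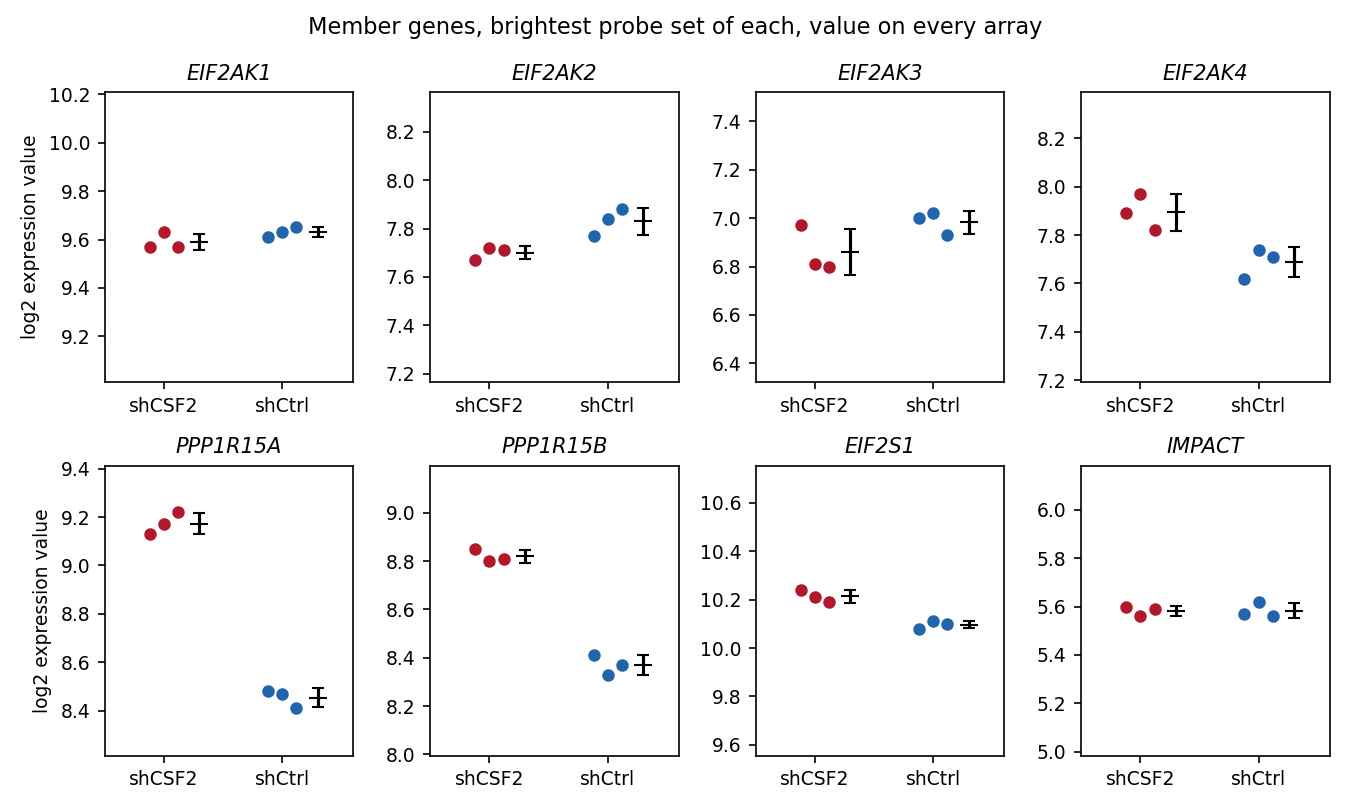
Log2 expression value of each of the 8 genes on every array, from the brightest probe set of each; dots are arrays (shCSF2 left, shCtrl right), the bar is mean ± SD (n = 3), and every panel spans the same height on the log2 scale. The shCSF2 arrays stand clear above the shCtrl arrays for PPP1R15A and PPP1R15B, while the kinase genes, EIF2S1 and IMPACT differ by 0.21 or less in either direction.

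PPP1R15A encodes the stress-induced phosphatase subunit, which closes the response by removing the phosphate. Its only probe set read 9.13, 9.17 and 9.22 on the 3 shCSF2 arrays, against 8.48, 8.47 and 8.41 on the 3 shCtrl arrays. All shCSF2 arrays lay above all shCtrl arrays, and the gap between the groups was many times the spread within either. The log2 fold change was 0.72 ± 0.04 (SE, n = 3 per group; 95% confidence interval 0.63 to 0.81; limma adjusted p = 5.38e-05). The call was kept under every alternative tried, with values between 0.7 and 0.74. The identifier of this probe set ends in x_at, which Affymetrix gives to sets with some probes that may also bind other transcripts, and no other probe set checks it.

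PPP1R15B encodes the subunit that keeps eIF2-alpha dephosphorylated in unstressed cells. Its brightest probe set read 8.85, 8.8 and 8.81 on the shCSF2 arrays, against 8.41, 8.33 and 8.37 on the shCtrl arrays. The groups were again clear of each other, with a log2 fold change of 0.45 ± 0.04 (SE, n = 3 per group; 95% confidence interval 0.36 to 0.54; limma adjusted p = 0.000221). All 4 probe sets of the gene were called higher in the fit over all probe sets. The 3 dimmer sets gave larger values than the brightest: 0.77 ± 0.06, 0.66 ± 0.05 and 0.68 ± 0.05, a rise of between 1.58-fold and 1.71-fold. The second set, for example, read 7.9, 7.8 and 7.81 on the shCSF2 arrays, against 7.15, 6.99 and 7.06 on the shCtrl arrays. Of these sets, 1 lay above the value of PPP1R15A and 2 below it, and the difference between the genes was not tested.

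The upstream sequences of these genes, which rose together, are shown because both hold a letter match to a motif known for factors of the ATF and CREB family. Sequences are from RefSeq (GRCh38.p14), whose table matched 7 of the 8 genes (not EIF2AK1), and run 5′ to 3′ on the gene's strand over the 250 bases before the transcript start. Capitals mark the match. The PPP1R15A stretch is chr19:48872171-48872420 on the plus strand, and the PPP1R15B stretch is chr1:204411818-204412067 on the minus strand.
PPP1R15A: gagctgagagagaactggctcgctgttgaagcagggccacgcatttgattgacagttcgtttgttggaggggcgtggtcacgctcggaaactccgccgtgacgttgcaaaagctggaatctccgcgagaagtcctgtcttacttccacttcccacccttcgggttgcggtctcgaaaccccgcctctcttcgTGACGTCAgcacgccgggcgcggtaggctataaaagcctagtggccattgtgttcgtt
PPP1R15B: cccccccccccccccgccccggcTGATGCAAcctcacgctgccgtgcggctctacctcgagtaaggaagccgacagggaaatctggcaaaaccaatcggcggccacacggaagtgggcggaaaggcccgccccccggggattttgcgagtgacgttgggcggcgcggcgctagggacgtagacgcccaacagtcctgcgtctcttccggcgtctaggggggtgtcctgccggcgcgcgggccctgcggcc

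The motifs were chosen with the results known and searched on both strands in windows running from 250 bases before to 50 after the start. The cyclic AMP response element TGACGTCA was found in PPP1R15A, with its first base at -58, and 1.85% of 35116 promoters held it. The core of the C/EBP-ATF response element, TGATGNAA, was found in PPP1R15B, as TGATGCAA with its first base at -227, and 3.62% of promoters held it. Neither was found in the windows of EIF2AK2, EIF2AK3, EIF2AK4, EIF2S1 or IMPACT. At these shares most promoters hold neither motif, so that absence is not read as a difference between the genes. The shorter motif TGACG, which also lies inside the full element, was found outside it at -152 in PPP1R15A and at -101 in PPP1R15B, and in none of the other 5 windows, against 24.6% of all promoters. The CCAAT box, CCAAT, was found in EIF2AK2, EIF2AK3 and PPP1R15B, and 34.6% of promoters held it. These are matches of letters and show no binding.

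Among the kinase genes, EIF2AK4, whose product senses uncharged transfer RNA, read 7.89, 7.97 and 7.82 on the shCSF2 arrays, against 7.62, 7.74 and 7.71 on the shCtrl arrays. The groups did not overlap, but the gap between the nearest arrays was small. The log2 fold change was 0.21 ± 0.05 (SE, n = 3 per group; 95% confidence interval 0.08 to 0.33; limma adjusted p = 0.0246). The call was lost without shCSF2 replicate 1, shCSF2 replicate 2, shCtrl replicate 1 or shCtrl replicate 3, with adjusted p between 0.0551 and 0.0753, and the adjusted p of the 6 fits without 1 array ran between 0.0233 and 0.0753. The second probe set was dim, at a mean of 4.54 in shCSF2 and 4.63 in shCtrl cells, and did not pass (-0.09 ± 0.07). With both averaged the gene was at 0.06 (adjusted p = 0.459).

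EIF2AK2, the interferon-inducible kinase that binds double-stranded RNA, read 7.67, 7.72 and 7.71 on the shCSF2 arrays, against 7.77, 7.84 and 7.88 on the shCtrl arrays. Every shCSF2 array lay below every shCtrl array. The log2 fold change was -0.13 ± 0.04 (SE, n = 3 per group; 95% confidence interval -0.23 to -0.037; limma adjusted p = 0.0432). The call was kept without shCtrl replicate 1 and lost without any of the other 5 arrays, with adjusted p between 0.0773 and 0.123 where it was lost. In the fit over all probe sets neither of its 2 sets passed (-0.13, adjusted p = 0.0583, and -0.12, adjusted p = 0.175).

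EIF2AK3, the kinase of the endoplasmic reticulum membrane, read 6.97, 6.81 and 6.8 on the shCSF2 arrays, against 7, 7.02 and 6.93 on the shCtrl arrays. The groups overlapped because shCSF2 replicate 1 lay within the shCtrl range. The log2 fold change was -0.12 ± 0.05 (SE, n = 3 per group; 95% confidence interval -0.25 to 0.0067; limma adjusted p = 0.135). Without shCSF2 replicate 1 it passed at -0.18 (adjusted p = 0.0322), and so it did with the 3 probe sets averaged (-0.14, adjusted p = 0.0206). The other 2 probe sets of EIF2AK3 had values of -0.17 ± 0.05 and -0.14 ± 0.05 without overlap between the groups, and did not pass over all probe sets (adjusted p = 0.0514 and 0.0592). All 3 sets thus had the same sign, and none reached the threshold in the main fit over all probe sets. Of the 14 alternatives run on probe sets, the brightest passed under 1, the second under 7 and the third under 4.

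EIF2AK1, the haem-regulated kinase, had the most probe sets, 8. The brightest read 9.57, 9.63 and 9.57 on the shCSF2 arrays, against 9.61, 9.63 and 9.65 on the shCtrl arrays, and the groups overlapped. The log2 fold change was -0.042 ± 0.036 (SE, n = 3 per group; 95% confidence interval -0.13 to 0.043; limma adjusted p = 0.425). The other sets spread to both sides, with 1 called lower and 1 called higher. The third brightest was lower (-0.14 ± 0.04, adjusted p = 0.0384), at 7.44, 7.41 and 7.49 on the shCSF2 arrays, against 7.58, 7.61 and 7.57 on the shCtrl arrays. The dimmest was higher (0.38 ± 0.1, adjusted p = 0.0331), at 4.92, 4.81 and 5.15 on the shCSF2 arrays, against 4.74, 4.47 and 4.53 on the shCtrl arrays. The 5 brightest sets had values between -0.14 and -0.0051 and the 3 dimmest between 0.09 and 0.38, so the direction of EIF2AK1 is unsettled. Probe sets called in both directions were found in 1.90% of the 11734 genes of the array with more than 1 set. That share is not matched to genes with as many sets as EIF2AK1, where opposite calls have more room to occur. The call of the third set was lost without any array other than shCSF2 replicate 3 (adjusted p between 0.0769 and 0.107). That of the dimmest was lost without shCSF2 replicate 1 or 3 or shCtrl replicate 2 or 3 (adjusted p between 0.0659 and 0.0997).

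**Figure D2:**
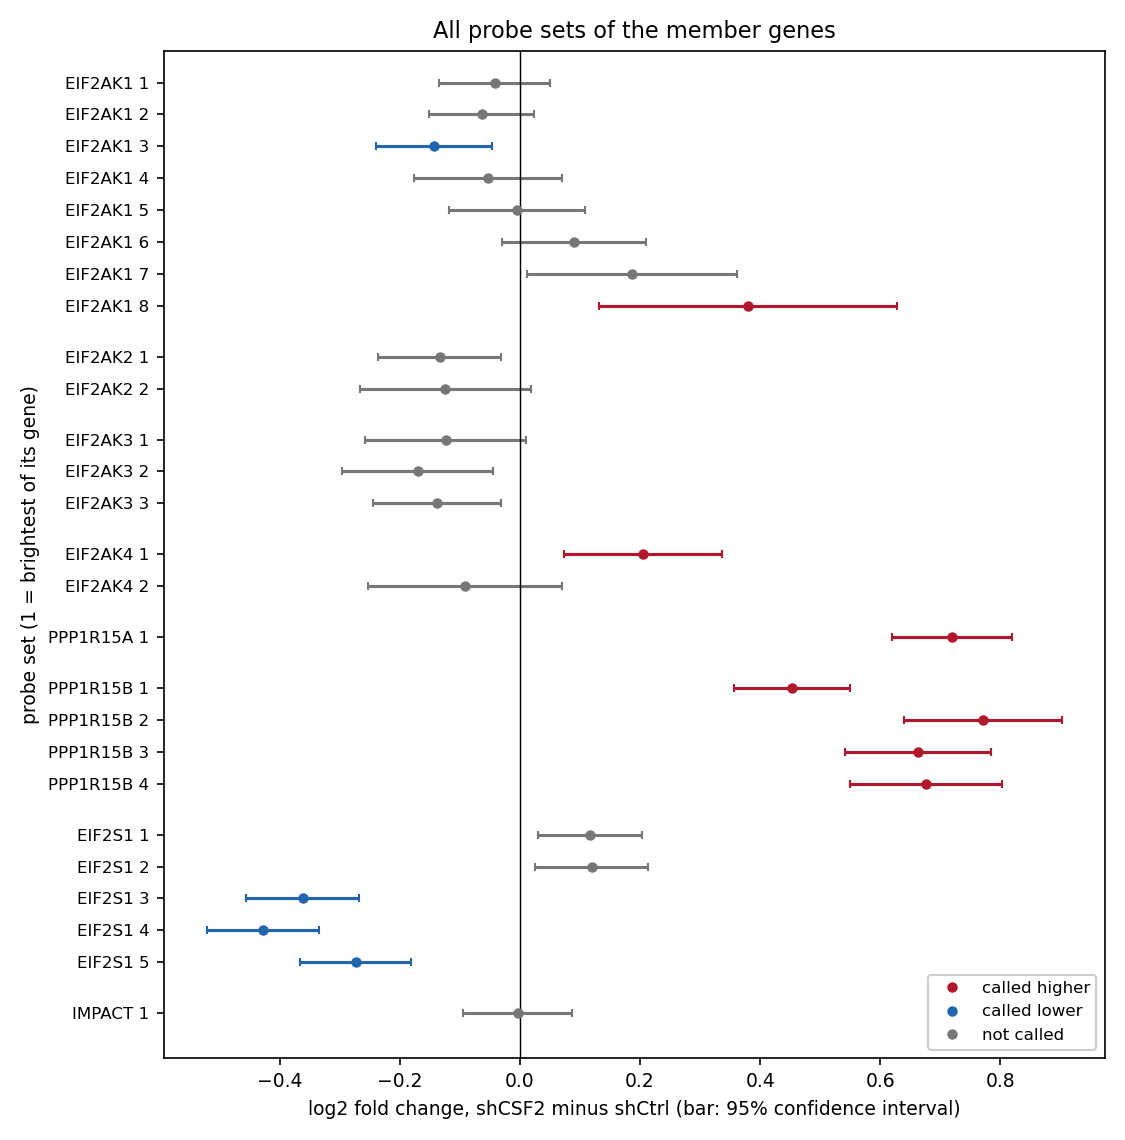
Log2 fold change (shCSF2 minus shCtrl) with its 95% confidence interval for all 26 probe sets of the 8 genes, numbered from the brightest of each gene; colour gives the call of the fit over all probe sets. All sets of PPP1R15A and PPP1R15B lie to the right of 0, those of EIF2AK2 and EIF2AK3 to the left without passing, and those of EIF2AK1, EIF2AK4 and EIF2S1 on both sides.

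EIF2S1 encodes eIF2-alpha itself, the substrate of all 4 kinases, and was the gene whose reading depended most on the probe set. Its brightest set read 10.24, 10.21 and 10.19 on the shCSF2 arrays, against 10.08, 10.11 and 10.1 on the shCtrl arrays. This is a small gap without overlap, which the gene fit called higher (0.12 ± 0.03, SE, n = 3 per group; 95% confidence interval 0.038 to 0.2; limma adjusted p = 0.034). The second brightest set gave a like value of 0.12 ± 0.04, and over all probe sets neither passed (adjusted p = 0.052 and 0.064).

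The 3 dimmer sets of EIF2S1 were all called lower. The third set read 8.82, 8.88 and 8.82 on the shCSF2 arrays, against 9.17, 9.23 and 9.2 on the shCtrl arrays, a log2 fold change of -0.36 ± 0.04 (limma adjusted p = 0.00075). The fourth read 8.08, 8.03 and 8.07 on the shCSF2 arrays, against 8.47, 8.46 and 8.53 on the shCtrl arrays (-0.43 ± 0.04, adjusted p = 0.000381). The fifth was at -0.27 ± 0.04 (adjusted p = 0.00218). None of these 3 sets had arrays that overlapped between the groups, and all kept their call under every alternative run on them. Taken per array, the mean of the 3 dimmer sets minus the mean of the 2 brighter ones was -1.95, -1.91 and -1.92 on the shCSF2 arrays, against -1.46, -1.48 and -1.42 on the shCtrl arrays, a split seen in the values and given as a description. The gene was at -0.17 with all sets averaged (adjusted p = 0.00414) and at -0.43 by its most variable set (adjusted p = 0.00065). The call of the brightest set was lost without any of the 6 arrays in turn (adjusted p between 0.0565 and 0.105), so no direction is given for EIF2S1 as a gene. Where the probes of each set lie in the transcript was not analysed here.

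**Figure D3:**
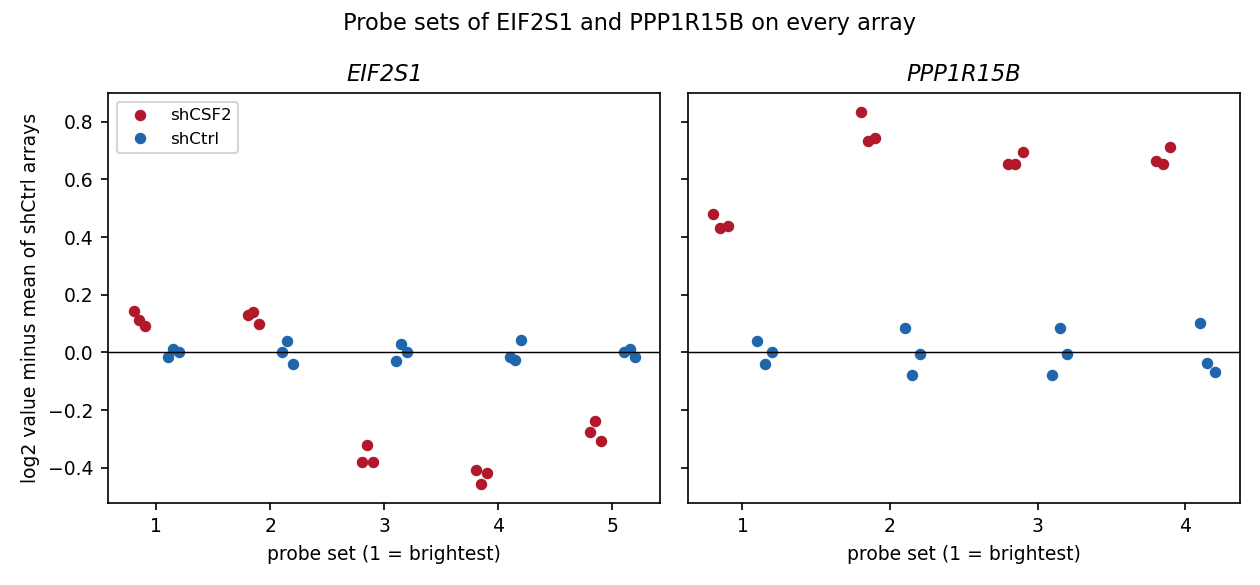
Value of each probe set of EIF2S1 (left panel) and PPP1R15B (right panel) on every array, as the log2 value minus the mean of the shCtrl arrays, with sets numbered from the brightest; red dots are shCSF2 and blue dots shCtrl arrays. For EIF2S1 the shCSF2 arrays lie above the shCtrl arrays in sets 1 and 2 and below them in sets 3 to 5, while for PPP1R15B they lie above in all 4 sets.

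IMPACT, which competes with the kinase encoded by EIF2AK4 for its activator GCN1, read 5.6, 5.56 and 5.59 on the shCSF2 arrays, against 5.57, 5.62 and 5.56 on the shCtrl arrays. The groups lay on top of each other, with a log2 fold change of -0.0034 ± 0.035 (SE, n = 3 per group; limma adjusted p = 0.953). The 95% confidence interval was -0.087 to 0.08. The gene has 1 probe set, with a mean of 5.58 in both shCSF2 and shCtrl cells, which lies below the array medians.

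Counted by probe set, 7 of the 26 were called higher, against 15.3% of all probe sets, and 4 lower, against 13.8%. Of the 7, PPP1R15B held 4 and PPP1R15A, EIF2AK1 and EIF2AK4 held 1 each, and of the 4 lower ones EIF2S1 held 3 and EIF2AK1 held 1. The shCSF2 arrays lay entirely above the shCtrl arrays in 9 sets and entirely below them in 8, against 43.8% of all probe sets in either direction. Probe sets of the same gene can share probes or transcripts and are not independent readings. The identifiers of 6 of the 26 sets end in x_at and those of 7 in s_at, endings for sets that may bind more than 1 transcript.

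For each of the 5 genes that passed in the gene fit, the genes with the most similar profile were found as those with the smallest root-mean-square difference over the 6 arrays, after each gene's mean was subtracted. PBDC1 (0.023 on the log2 scale) and TOE1 (0.03) were closest to PPP1R15A. ZNF518B (0.014) and TNFRSF10A (0.015), the gene of a TRAIL receptor, were closest to PPP1R15B. SSR4 (0.01) and TOMM5 (0.012) were closest to EIF2AK2, DDX19A (0.013) and POGLUT1 (0.015) to EIF2AK4, and CLTC (0.0081) and TBC1D15 (0.012) to the brightest set of EIF2S1. The measure describes these 6 arrays only.

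The other genes of the pathway were followed in 5 lists, chosen with earlier results of these data known. Of 7 genes of the eIF2 complex and its exchange factor eIF2B, 3 rose and 0 fell by limma, against 16.7% and 16.0% of all genes, with a median log2 fold change of 0.11. All 3 were eIF2B subunit genes: EIF2B5, which encodes the catalytic subunit (0.27 ± 0.04, SE, adjusted p = 0.00231), EIF2B1 (0.19 ± 0.04, adjusted p = 0.00794) and EIF2B4 (0.13 ± 0.04, adjusted p = 0.0333). EIF2B5 read 8.33, 8.29 and 8.36 on the shCSF2 arrays, against 8.02, 8.11 and 8.06 on the shCtrl arrays. The call of EIF2B4 was lost in 5 of the 6 fits without 1 array, all but that without shCtrl replicate 3 (adjusted p up to 0.103). It was also lost with all probe sets averaged (0.085, adjusted p = 0.0943) and by the most variable probe set (adjusted p = 0.0745). With the replicate number as a block the adjusted p was 0.0556. The genes of the other eIF2 subunits, EIF2S2 (0.086 ± 0.036) and EIF2S3 (0.064 ± 0.033), named after their values were seen, did not pass. EIF2S2 had 1 of its 3 probe sets called higher and 1 lower.

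Of the 3 catalytic subunit genes of protein phosphatase 1, the enzyme that PPP1R15A and PPP1R15B direct, 2 fell and 0 rose, against 16.0% and 16.7% of all genes, with a median of -0.12. PPP1CC fell by 0.34 on the log2 scale (± 0.03, SE, limma adjusted p = 0.000486), at 11.58, 11.63 and 11.56 on the shCSF2 arrays, against 11.92, 11.92 and 11.95 on the shCtrl arrays, and all 3 of its probe sets were called lower. PPP1CA was lower by less (-0.12 ± 0.04, adjusted p = 0.0346), and its call was lost without any array other than shCtrl replicate 2 (adjusted p up to 0.0983). PPP1CB, chosen with its value known, missed the threshold (0.12 ± 0.04, adjusted p = 0.0687), and 1 of its 6 probe sets was called lower. The shCSF2 arrays of its brightest set lay above the shCtrl arrays without overlap, and under 5 of the 16 alternatives PPP1CB was called higher. By the most variable probe set of each gene, in contrast, all 3 were called lower, PPP1CB included. No direction is therefore given for PPP1CB. The difference between regulatory and catalytic subunit genes was not tested.

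Of 9 genes that feed or regulate the kinases, 2 fell and 0 rose, against 16.0% and 16.7% of all genes, with a median of -0.039. With so few genes this count lies close to that share and is not read as a property of the list. OMA1, the mitochondrial protease that starts the signal to EIF2AK1, fell (-0.26 ± 0.04, SE, limma adjusted p = 0.00347), at 7.44, 7.33 and 7.38 on the shCSF2 arrays, against 7.6, 7.65 and 7.68 on the shCtrl arrays. NCK1, an adaptor that binds EIF2AK3 and EIF2AK2 and is linked to eIF2-alpha dephosphorylation, was lower (-0.16 ± 0.04, adjusted p = 0.0214). That call was lost without any array other than shCSF2 replicate 3 (adjusted p up to 0.0701). DELE1, PRKRA, TARBP2, ADAR, DNAJC3, GCN1 and HSPA5 did not pass. HSPA5, the chaperone that holds EIF2AK3 inactive, was at -0.039 ± 0.036 and GCN1, the activator of EIF2AK4, at 5.04e-05 ± 0.036 on the log2 scale, both chosen with their values known, and 3 of the 6 probe sets of HSPA5 were called lower.

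Downstream of phosphorylated eIF2-alpha, 14 of 18 listed genes rose and 0 fell, against 16.7% and 16.0% of all genes, with a median of 0.46. This list follows a pattern already known in these data and is no independent evidence of its direction. The largest rises were those of SLC7A11, a cystine transporter gene (1.44 ± 0.04), of DDIT4 and SESN2, whose products restrain mTOR (1.12 ± 0.04 and 1.10 ± 0.05), and of ATF3, which encodes a transcription factor (1.03 ± 0.03) (limma adjusted p between 8.96e-06 and 3.04e-05). With its 7 probe sets averaged ATF3 was at 0.64. ATF4 rose by 0.39 ± 0.03 and DDIT3, which encodes CHOP, by 0.65 ± 0.05, both named after their values were seen. PPP1R15A (0.72) lay between these and TRIB3 (0.96), CHAC1 (0.80) and ASNS (0.75), also named after their values were seen, and no difference between these genes was tested. ATF5, VLDLR, STC2 and NUPR1 did not pass. STC2 nevertheless had 2 of its 3 probe sets called higher, and NUPR1 was dim, at a mean of 3.95 in shCSF2 and 4.03 in shCtrl cells.

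Of 8 genes of the other branches of the unfolded protein response, 5 rose and 0 fell, against 16.7% and 16.0% of all genes, with a median of 0.19. The transcription factor genes XBP1 (0.46 ± 0.04, SE, limma adjusted p = 0.000184) and ATF6 (0.33 ± 0.05, adjusted p = 0.00325) rose, as did HERPUD1, which serves degradation at the endoplasmic reticulum (0.24 ± 0.04, adjusted p = 0.00477), and the co-chaperone gene DNAJB9 (0.22 ± 0.05, adjusted p = 0.0174). The call of DNAJB9 was lost without shCtrl replicate 1 or 2 (adjusted p = 0.0606 and 0.051) and by the most variable probe set (0.17, adjusted p = 0.164). ERN1, which encodes the sensor IRE1-alpha, was dim, at a mean of 4.02 in shCSF2 and 4.08 in shCtrl cells, and did not pass. MBTPS2 (0.12 ± 0.05) and SEL1L (0.048 ± 0.033), named after their values were seen, did not pass either. HSPA5 (-0.039) and DNAJC3 (0.03) were counted with the kinase inputs and not here, and neither passed. The list was chosen with earlier results known, so its count is no independent evidence of a direction.

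**Figure D4:**
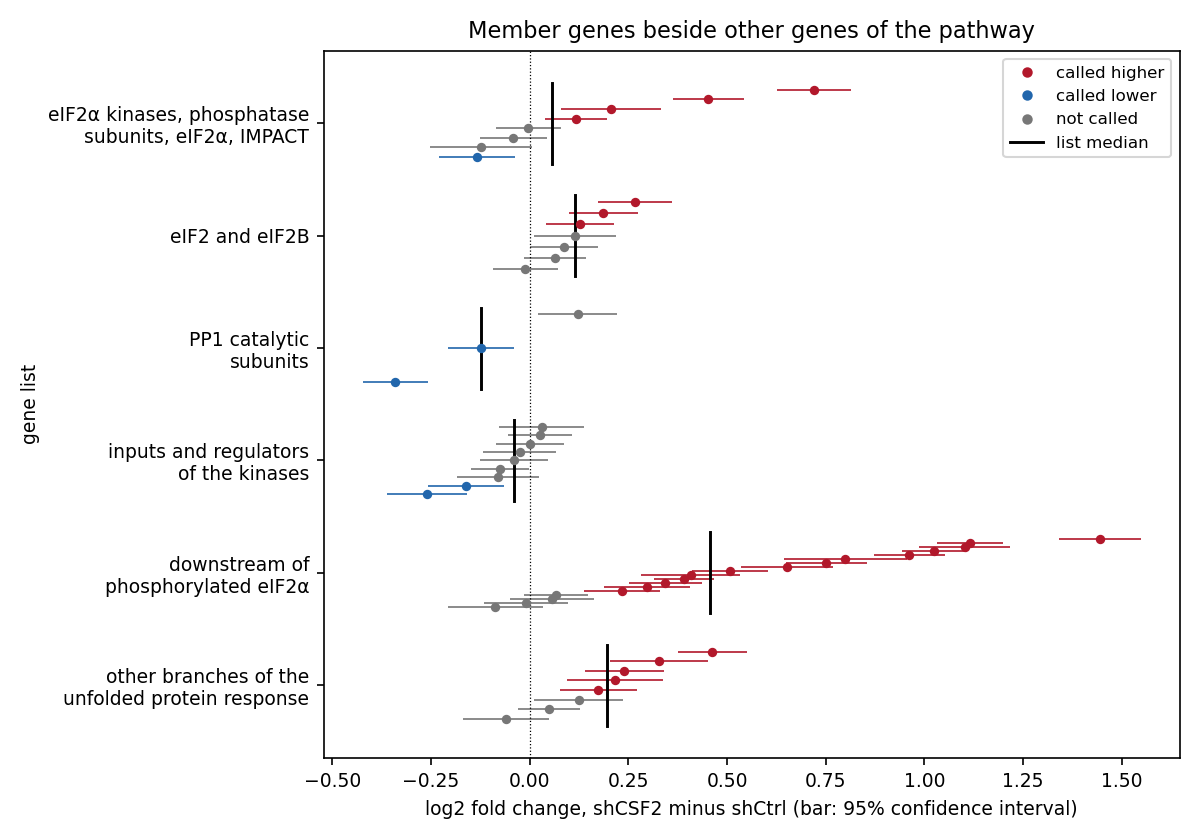
Log2 fold change (shCSF2 minus shCtrl) with its 95% confidence interval for the 8 genes (top row) and for the genes of the 5 pathway lists, by the brightest probe set; colour gives the call of the gene fit and black lines the list medians. The medians run from -0.12 for the catalytic subunits of protein phosphatase 1 to 0.46 for the genes downstream of phosphorylated eIF2-alpha, with the 8 genes at 0.057.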

How the data were processed

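Total RNA (200 ng) from BCPAP cells was hybridised to Affymetrix PrimeView arrays, per the labels. The authors deposited log2 values, 1 per probe set and array. RMA, oligo and limma are listed in the submitters' processing notes, with neither version nor role. Probe-level data were not used. Samples were grouped by title.

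Of 49395 probe sets, 102 controls were left out. The other 49293 entered the probe set fit, and the brightest of each gene's single-symbol sets (18132 genes) the gene fit. Symbols were matched by gene identifier to RefSeq GRCh38.p14 (27 unmatched, 0 changed). Differences, shCSF2 minus shCtrl, came from limma 3.58.1 (lmFit, then eBayes; R 4.3.3), without block, trend or filter, with Benjamini-Hochberg adjusted p-values over all genes or all probe sets, threshold 0.05. The fits were also run on simulated data with few changed genes and no pairing of arrays. The share of genes called here was larger, and no result rests on that run. From each list, up to 4 passing genes with the largest change were named, or 2 where none passed, and for each passing member the 2 most alike genes. The number of arrays limits precision. Members, lists and motifs were chosen with earlier results of these data known. Figures used matplotlib 3.10.9.

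Alternatives were 2 filters on dim signal, 3 normalisations, a robust variance trend, array weights, the replicate number as a block, the mean or most variable probe set per gene, and leaving out each array.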

Additional observations from a re-analysis of the deposited data

How the results depend on the processing

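Of 49 log2 fold changes followed, 28 kept direction and call under every alternative, among them those of PPP1R15A (0.7 to 0.74) and PPP1R15B (0.43 to 0.77); 10 lost a call, 8 gained one and 5 turned direction under 1 or more. The cause was not tested. The 49 hold each member gene, each of the 26 member probe sets and the list genes named by size of change. The brightest set of a member was thus counted in both fits. Those list genes were picked for the largest changes that passed, which favours kept calls. Among the member genes, only PPP1R15A and PPP1R15B kept direction and call under every alternative.

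With all probe sets averaged, 2 of the 8 genes were called higher and 3 lower, EIF2S1 turned to -0.17 and EIF2AK1 to 0.044, EIF2AK4 lost its call (0.057) and EIF2AK3 gained one (-0.14). By the most variable probe set EIF2S1 was at -0.43 and EIF2AK1 passed at 0.38 (adjusted p = 0.0328), 3 PP1 catalytic subunits were called lower, and EIF2AK2 lost its call (-0.12). With genes below the median left out, where IMPACT could not be tested, 2 were called lower, EIF2AK3 passed (-0.12), and 5 eIF2 and eIF2B genes were called higher. With the robust trend 6 of these were. Member probe sets called lower numbered 7 after either filter and after quantile normalisation. PP1 catalytic subunits called higher numbered 1, PPP1CB, under the filter at 5, the median filter, quantile normalisation, cyclic loess and the trend. Those called lower numbered 1 after quantile normalisation. IMPACT, near 0, turned to 0.0065 after quantile normalisation and 0.014 after cyclic loess.

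Between arrays of the same replicate number the correlation of deviations was small (0.034, 0.051 and 0.033), but 6 of 6 arrays correlated best with their own number. A weak pairing by number is therefore not excluded, and the main fits have no block. With the replicate block, EIF2AK2 (-0.13, adjusted p = 0.0514) and EIF2S1 (0.12, adjusted p = 0.0737) lost their calls, so that 0 genes were called lower, and PP1 catalytic subunits called lower numbered 1.

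Without 1 array each in turn, between 2 and 3 of the 8 genes were called higher and between 0 and 1 lower. EIF2AK2 ran between -0.16 and -0.11, EIF2AK3 between -0.18 and -0.093, EIF2AK4 between 0.17 and 0.24, EIF2S1 between 0.104 and 0.129, IMPACT between -0.014 and 0.015, and the fifth probe set of EIF2AK1 between -0.049 and 0.017. eIF2 and eIF2B genes called higher numbered 2 to 4, PP1 subunits called lower 1 to 2, and kinase inputs called lower 1 to 2. Member probe sets called lower numbered 3 to 5.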
